A study of Mus musculus with 10 samples.

Results

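Germinal centre (GC) B cells of the B1-8 heavy chain line were compared with naive B cells on 7 oligonucleotide arrays of a 10-array series, 3 from GC B1-8 cells and 4 from naive cells. The members are the arrays whose labels name those groups. The other 3 arrays hold GC B cells of a second line, V23, and were used for the shared estimate of the spread and for a direct check of whether a named gene differed between the lines. The B1-8 mice were on a Balb/c background and carried the transgenic heavy chain VH186.2-Tg together with a deletion of the endogenous JH segments (JH KO), and the V23 mice carried V23-Tg with the same JH KO. From earlier work on these transgenes, B1-8 gives B cells that bind the hapten NP through λ light chains with higher affinity than V23. The B1-8 and V23 mice received 50 µg of NP25-CGG, the hapten on a carrier protein, in alum by the intraperitoneal route, and λ+ PNA+ B220+ spleen cells were sorted 14 days later. PNA is peanut agglutinin, a lectin that marks GC B cells. The naive cells came from spleens of Balb/c mice that were not immunized, and the labels name no transgene for them and no stain by which they were selected. Naive and GC B1-8 cells therefore differ by immunization, transgene and sort at once, and these cannot be told apart here. All cells were kept cold in buffer with sodium azide. The labels do not say that replicates are separate animals, so the p-values measure the spread between these samples, which may be technical.

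A germinal centre is a transient structure of the B cell follicle in which activated B cells divide rapidly, mutate their immunoglobulin genes and compete for antigen and T cell help. Its B cells are led there by loss of receptors for exit and for the T cell zone, and Bcl6, a transcriptional repressor, maintains their identity. Naive follicular B cells are resting cells that recirculate, and their survival rests on Bcl2 and on signals from the factor BAFF.

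Values are deposited log2 signals, and a gene is said to have risen or fallen when its adjusted p in the test across all genes was under 0.05. Of 17204 genes tested, 5796 (33.7%) passed, 2828 higher (16.4%) and 2968 lower (17.3%) in GC B1-8. These percentages are the background against which the counts of each gene family below are read. Of the called genes, 1058 were at least 2-fold higher (6.15%) and 1187 at least 2-fold lower (6.9%). The median difference of all genes was 0.05 (log2). The 3 GC B1-8 arrays lay entirely above the 4 naive arrays for 21.2% of genes and entirely below them for 21.1%. Replicates correlated across genes at r from 0.953 to 0.959 within naive and from 0.953 to 0.956 within GC B1-8. A difference in bulk RNA cannot tell fewer cells of a type from less RNA per cell.

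The labelled cell types were set beside lists of their markers. These lists were fixed with earlier results of these data known, so they do not check the labels independently. Of 10 GC B cell markers tested, 9 rose, and their mean signal was 12.13 to 12.18 on the GC B1-8 arrays against 8.66 to 10.26 on the naive arrays. Rgs13, which restrains chemokine receptor signalling, was the marker that did not pass, with a difference of −0.01 ± 0.09 (SE). Of 6 naive follicular markers, 5 fell. Pan-B cell markers were at high signal in both groups, Ms4a1 (CD20) at 14.35 ± 0.09 (SD, n = 4) in naive and 14.26 ± 0.07 (n = 3) in GC B1-8 cells, although Pax5, Blnk and Fcrla fell.

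2 naive arrays stood apart. Naive replicate 2 had the highest GC marker mean of the naive arrays, 10.26, and a mean of 9.62 over mitosis genes, where the other naive arrays were at 8.87, 8.94 and 9.27. Naive replicate 4 had a neutrophil marker mean of 8.79 against at most 7.36 on the other naive arrays, and a handling stress mean of 9.41 against 10.27 to 10.62. It was also the highest naive array in macrophage (8.13 against at most 7.22) and T cell markers (7.95 against at most 7.64). The same held for NK, erythroid and dendritic cell markers. Its median over all probe sets was 7.04 against 6.81 to 6.84, and 14.8% of its values were below log2 4 against 16.8% to 17.2%. Without both arrays, 2528 genes rose and 2292 fell. GC B1-8 arrays were all higher still in neutrophil markers, at 10.47 to 10.51, and 12 of 13 rose, among them S100a9 from 10.29 ± 1.10 (SD, n = 4) to 13.92 ± 0.07 (n = 3) and Ltf, lactoferrin, by 4.01 ± 0.48. Without naive replicates 2 and 4 these rises were 4.33 and 4.60, and 12 of the list rose. The 11 T cell markers gave no call, with an unadjusted p under 0.05 for 2 of them, and the 12 macrophage markers gave 1 rise, Lyz2 (1.99, or 2.66 without naive replicates 2 and 4). Mrc1, of macrophages, passed as lower (−0.81, adjusted p = 0.0439) but missed the threshold in 12 alternatives, among them that without naive replicates 2 and 4 (−0.52). Of 7 NK cell markers 3 fell, with list means of 7.71 to 8.27 on the naive and 7.25 to 7.29 on the GC B1-8 arrays. Of 5 platelet markers 2 fell (6.62 to 7.08 and 5.85 to 6.46), and of 3 erythroid markers 2 fell (5.91 to 7.8 and 4.44 to 6.04). Without naive replicates 2 and 4 these falls were 1, 1 and none. 2 of 8 plasma cell markers rose, Jchain and Slamf7, with list means of 9.56 to 10.01 and 9.85 to 10.54. The part of these other cells in the results was not tested.

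A sign of RNA quality also moved with the groups. The signal of the 3′ control probe set of Actb exceeded that of the 5′ one by 1.27 to 1.65 (log2) on the naive arrays and by 0.81 to 1.19 on the GC B1-8 arrays, with no overlap. For Gapdh the differences were 0.31 to 0.67 and 0.11 to 0.41, with overlap. The part of this in the results was not tested.

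**Figure D1:**
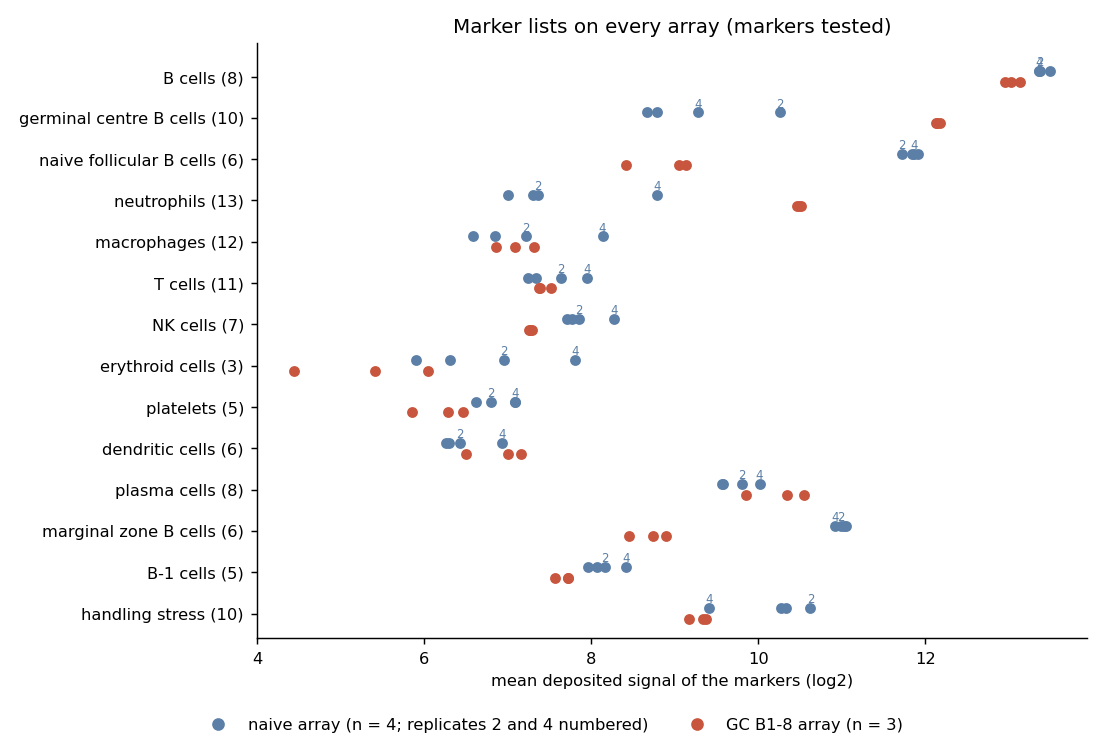
Mean deposited log2 signal of each marker list on the 4 naive arrays (blue) and the 3 GC B1-8 arrays (red), with the number of markers tested in brackets. The GC marker means of the GC B1-8 arrays, 12.13 to 12.18, lie above naive replicate 2 at 10.26, and the neutrophil means, 10.47 to 10.51, above naive replicate 4 at 8.79.

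Among genes with all values above log2 4, those with the largest rises held several that are characteristic of the GC. Gcsam, a signalling adaptor restricted to GC B cells, was at 5.25, 8.52, 5.25 and 7.25 on the naive arrays and at 12.09, 12.02 and 12.01 on the GC B1-8 arrays. All GC B1-8 values lay above all naive values, and the rise was 5.47 ± 0.73 (log2, SE; 44.4-fold, adjusted p = 0.00059). Without naive replicate 2 it was 6.13, and without replicates 2 and 4 it was 6.79. Kcnn4, a calcium-activated potassium channel, was more even, at 4.32, 5.07, 4.11 and 5.36 in naive and 10.19, 10.02 and 10.07 in GC B1-8 cells. Its rise was 5.38 ± 0.29 (adjusted p = 1.03e-05), with a smaller error than that of Gcsam.

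Rgcc, a regulator of cell cycle progression, rose by 5.17 ± 0.31 from naive values between 5.30 and 6.76 to GC B1-8 values between 11.10 and 11.47. Mef2b, a transcription factor that activates Bcl6, went from 7.04, 9.91, 7.54 and 7.60 to 12.61, 12.50 and 12.28. The second naive value is that of the array with high GC markers, and the rise of 4.44 ± 0.59 became 5.07 without it and 5.18 without replicates 2 and 4. Mybl1, a MYB family factor of GC B cells, rose by 4.32 ± 0.44, and by 5.0 without naive replicates 2 and 4. Ada, adenosine deaminase, rose by 4.07 ± 0.37 to 12.85 ± 0.17 (SD, n = 3). Sh3bgrl2 and Endou, an endoribonuclease, rose by 4.24 ± 0.26 and 4.11 ± 0.37.

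2 of the 10 highest, Lcn2 and Camp, encode granule proteins of neutrophils. Lcn2 rose by 4.93 ± 0.67 (5.60 without naive replicate 4, and 5.78 without replicates 2 and 4) and Camp by 4.24 ± 0.51 (4.91 without replicates 2 and 4). Hp and Lrg1, also made by granulocytes, were below log2 4 on naive replicates 1 to 3 and at 5.42 and 4.13 on replicate 4, and rose to 8.66 ± 0.14 and 8.10 ± 0.27 (SD, n = 3). These 4 were named for the size of their rises, and Lcn2 is itself on the neutrophil marker list. Their rises are therefore not independent of the neutrophil marker result given above. Signals below log2 4 carry little order, so genes with such values were ranked once values were raised to log2 4. Gpsm2, which orients the mitotic spindle, rose by 5.26 in this way. Timd2, a receptor for ferritin, rose by 4.70 in the same way and Pipox, a peroxisomal oxidase, by 4.41. Their fitted rises changed by over 1.5 times on the linear scale when 1 array was left out, Gpsm2 from 6.03 to 6.86 without naive replicate 2, to 5.34 without replicate 1 and to 7.59 without replicates 2 and 4, Pipox from 4.63 to 5.27 without replicate 2 and to 5.62 without replicates 2 and 4, and Timd2 from 4.80 to 4.21 without replicate 4.

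Among genes with all values above log2 4, the largest falls were from high and even naive values. Tbx3, a T-box transcription factor, was between 12.18 and 12.36 on the naive arrays and at 5.42, 6.45 and 6.39 on the GC B1-8 arrays. The fall was 6.21 ± 0.26 on the log2 scale, 73.8-fold, with an adjusted p of 4.22e-06. When its probe sets were averaged the difference was −4.71. Ly6d, a surface protein of lymphoid cells, was between 12.93 and 13.04 in naive and at 6.81, 7.62 and 6.75 in GC B1-8 cells, a difference of −5.92 ± 0.23. Cd1d1, which presents lipid antigens to NKT cells, went from 11.95 ± 0.14 (SD, n = 4) to 7.04 ± 0.38 (n = 3), a difference of −4.91 ± 0.17. The groups were far apart for each of the 3 genes.

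Ccr7, which guides cells to the T cell zone, was between 11.13 and 11.43 in naive cells and at 4.71, 7.30 and 7.06 in GC B1-8 cells. The first GC B1-8 value was the lowest by a wide margin, and the difference of −4.89 ± 0.55 was −4.07 without that array. Nid1, a basement membrane protein, fell by 4.85 ± 0.26 on the log2 scale and Cobll1 fell by 5.19 ± 0.39 (−3.78 with the mean of its probe sets). The other 4 of the 10 lowest, Pml, Rtp4, Ifi44l and Usp18, are interferon-stimulated genes, with differences between −5.29 and −4.68. Genes with GC B1-8 values below log2 4 were ranked after values were raised to log2 4, since the fitted difference then depends on signals with little order. Ifi204, an interferon-stimulated gene, had a fitted difference of −6.89 ± 0.66 that became −3.61 in this way. By this ranking Gpr34, a receptor for lysophosphatidylserine, fell by 5.42 on the log2 scale once values were raised to log2 4. Tmem163, a zinc transporter, fell by 4.92 and Dglucy by 4.66 in the same way. Arhgap18 fell by 4.54 (−3.39, fitted, with the mean of its probe sets) and Mx2, an antiviral GTPase, by 4.25. Gpr34 and Tmem163 rested unevenly on single arrays, with fitted differences of −4.89 and −5.99 without GC B1-8 replicate 3 and of −6.62 and −4.62 without replicate 1.

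**Figure D2:**
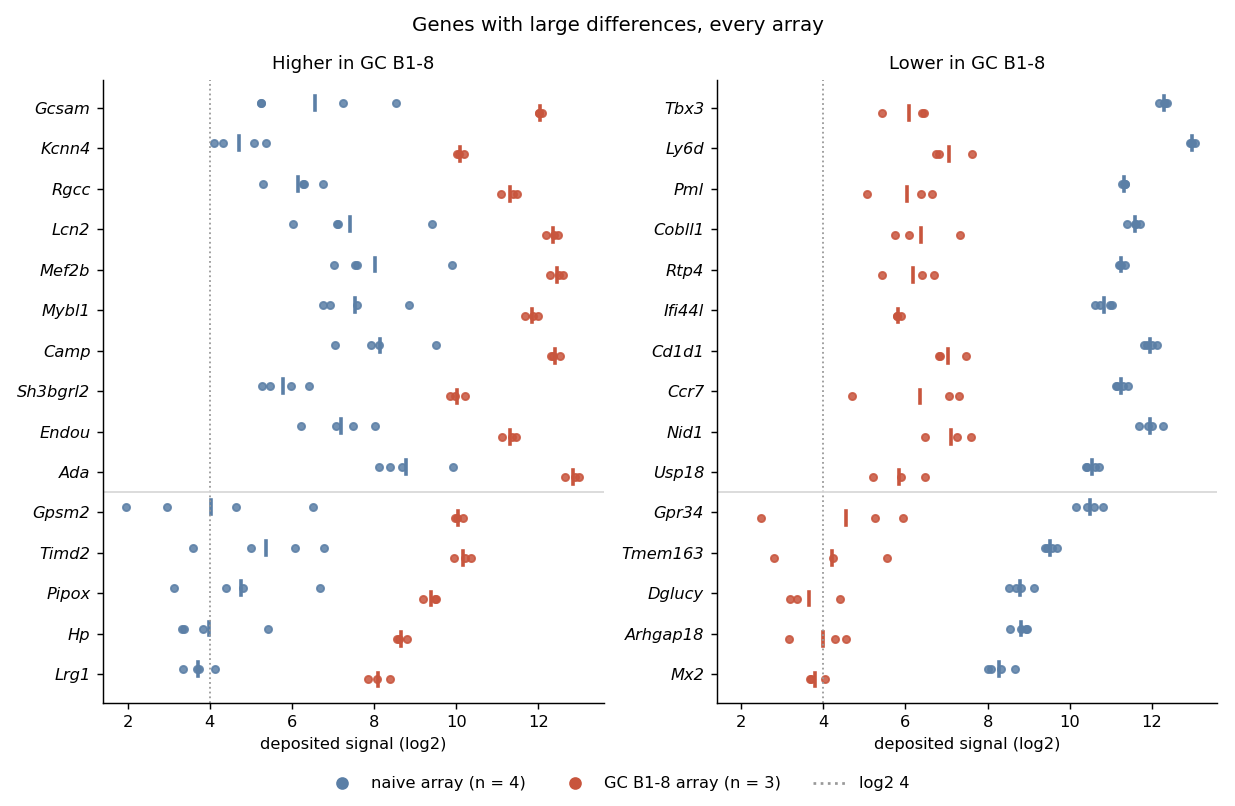
Deposited log2 signal of the genes with large differences on each of the 4 naive (blue) and 3 GC B1-8 (red) arrays, with group means as vertical bars and log2 4 as a dotted line. The upper 10 genes of each panel have all 7 values above log2 4 and the lower 5 do not. Lack of overlap between the groups was part of the rule by which these genes were chosen. Examples are Gcsam, with naive values up to 8.52 against 12.01 and above, and Tbx3, with naive values down to 12.18 against 6.45 and below.

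Gene families differed widely in how many members moved and in which direction. Of 62 families, those of mitosis, the kinetochore and DNA replication had the largest shares of higher members, and the interferon-stimulated genes the largest share of lower members among families of 10 or more.

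**Figure D3:**
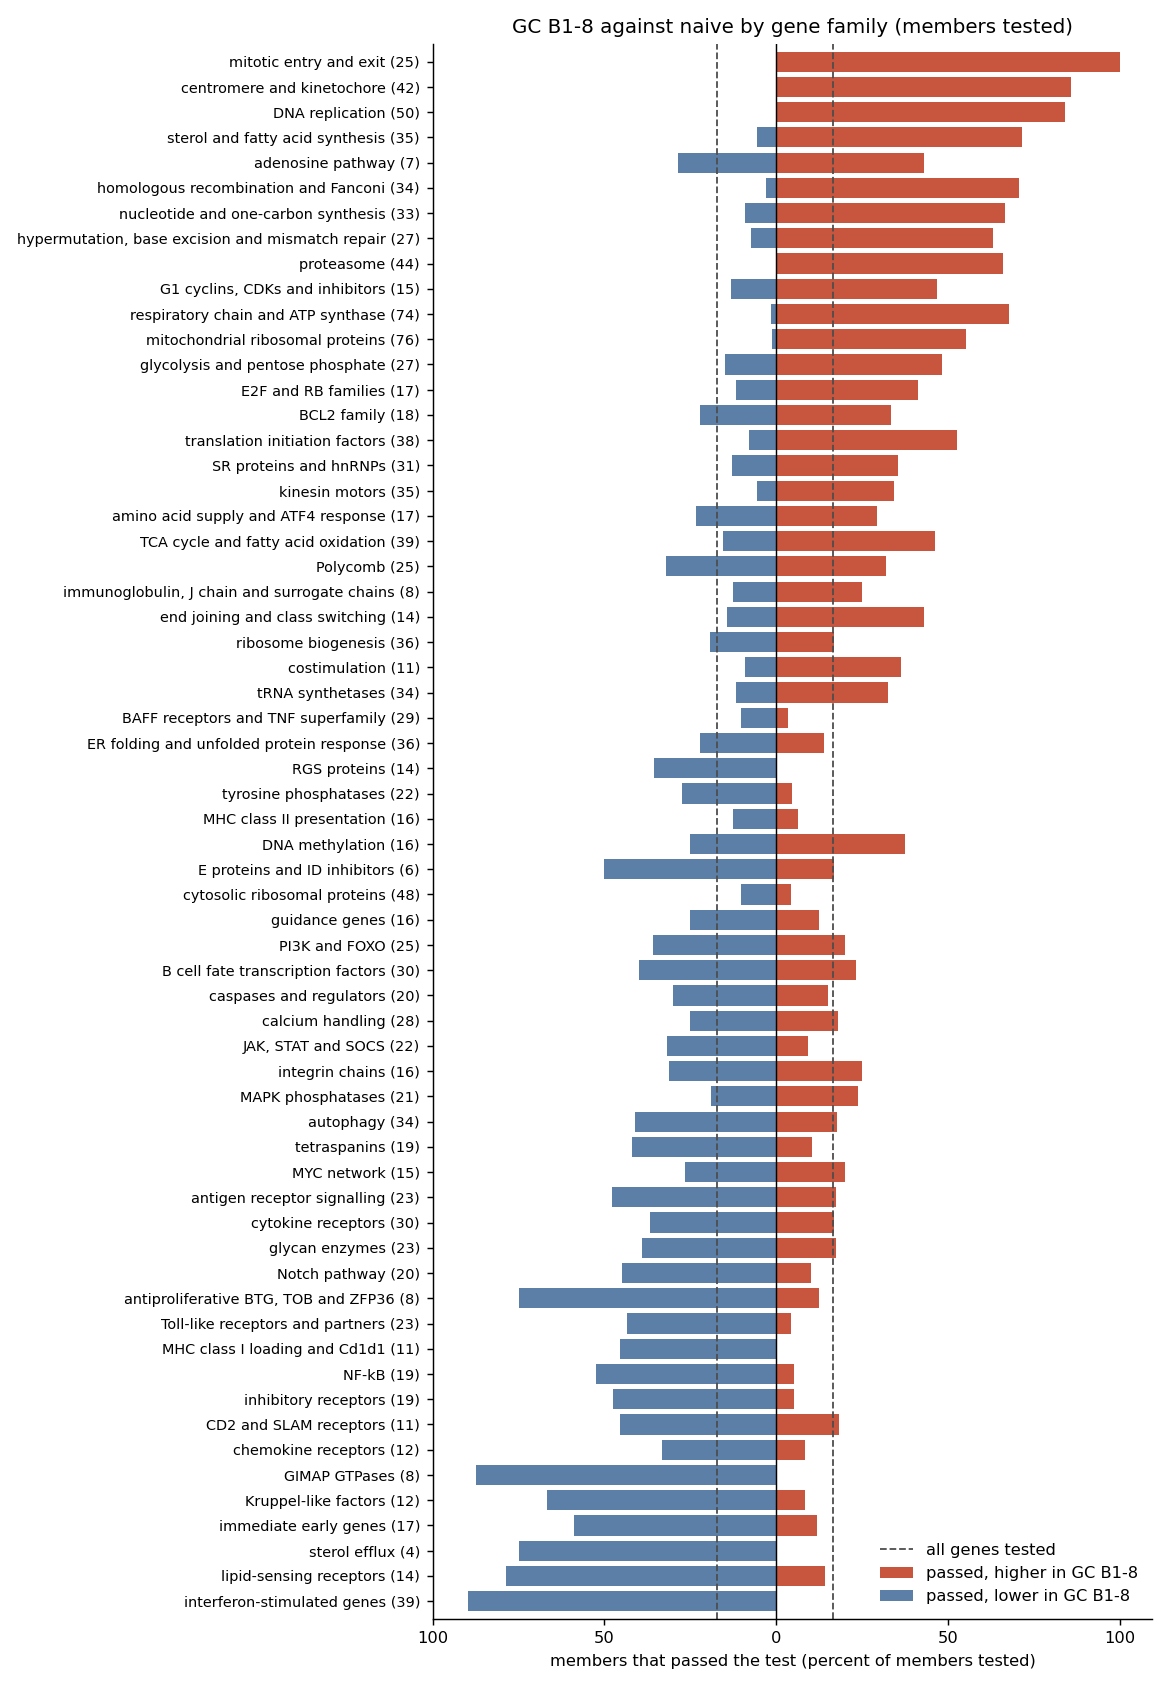
Percent of the tested members of each of 62 gene families that passed the test, higher in GC B1-8 to the right (red) and lower to the left (blue), ordered by the family's median difference. Dashed lines mark the background of all genes tested, 16.4% higher and 17.3% lower. Mitotic entry and exit genes reach 100% higher and interferon-stimulated genes 89.7% lower.

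Interferon-stimulated genes are turned on by type I and II interferons through STAT factors and IRF9, and encode antiviral effectors. Of 39 tested, 35 fell and none rose, with a median difference of −1.96 against 0.05 for all genes. The other 4, Oasl2, Herc6, Ifi203 and Stat2, had differences of −0.88 ± 0.32, −0.42 ± 0.15, −0.91 ± 0.47 and −0.15 ± 0.18, and Oasl2 passed as lower without any 1 of naive replicates 2, 3 and 4 (−1.03 to −0.57). Without naive replicates 2 and 4 together 31 fell. Xaf1, an inhibitor of the apoptosis inhibitor XIAP, was between 10.68 and 10.86 in naive and at 8.20, 8.27 and 8.29 in GC B1-8 cells, a difference of −2.52 ± 0.08 (adjusted p = 2e-06), or −1.79 when its probe sets were averaged. Irf9, part of the interferon-activated factor ISGF3, went from 11.53, 11.69, 11.52 and 11.58 to 9.39, 9.56 and 9.62. Ifi27l2a, Trim30a, Gbp2, Irf7 and Bst2 fell by 2.25 ± 0.10, 2.13 ± 0.11, 2.45 ± 0.13, 1.27 ± 0.17 and 1.96 ± 0.42 on the log2 scale, and Bst2, which tethers virions, missed the threshold without naive replicates 2 and 4 at −1.87. Ifnar2, a chain of the type I interferon receptor, fell from 10.41 ± 0.18 to 6.88 ± 0.30, a difference of −3.53, or −2.36 with the mean of its probe sets.

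Promoters of this family were searched for the interferon-stimulated response element, here GAAA and GAAA with any 2 bases between them, on either strand, in 300 bases of RefSeq sequence from 250 bases before to 50 after each gene's start (GRCm38.p6). The 28 members with a promoter sequence held it in 13 cases (46.4%), against 3.6% of all tested genes with a promoter. A gene was counted if any of its promoters held the element. Of all 32851 promoters, each counted singly, 3.4% held it. The family was listed as interferon-stimulated, so its share does not speak to the comparison of GC B1-8 with naive cells. Among called genes at least 2-fold lower, family members included, 6.1% held it. The share was 3.4% of those at least 2-fold higher and 3.4% of genes not called. Members with the element had a median difference of −1.81 and 11 of 13 fell, and members without it had −1.61 and 13 of 15 fell. 2 promoters, picked after the values were seen, are shown with the element in capitals. Their genes passed the test with small p and have a single promoter, which holds the element.
Gbp2, chr3:142620413-142620712, plus strand: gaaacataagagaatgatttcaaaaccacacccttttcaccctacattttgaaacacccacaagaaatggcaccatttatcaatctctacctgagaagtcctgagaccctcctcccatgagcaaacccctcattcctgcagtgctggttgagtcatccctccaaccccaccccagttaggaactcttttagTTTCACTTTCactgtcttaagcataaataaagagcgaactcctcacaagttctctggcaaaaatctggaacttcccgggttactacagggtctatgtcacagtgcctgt
Ifit3, chr19:34583279-34583578, plus strand: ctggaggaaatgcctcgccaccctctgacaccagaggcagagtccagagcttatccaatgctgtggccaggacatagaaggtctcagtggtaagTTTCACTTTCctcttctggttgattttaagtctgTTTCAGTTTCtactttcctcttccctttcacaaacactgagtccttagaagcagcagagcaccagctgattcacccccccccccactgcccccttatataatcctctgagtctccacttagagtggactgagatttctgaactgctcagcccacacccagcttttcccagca
The Gbp2 element begins at position −59 from the start. Ifit3, which restricts viral RNA, was at 10.04, 10.14, 10.31 and 10.29 in naive and 6.81, 6.06 and 7.27 in GC B1-8 cells and holds 2 elements, at −156 and −122. A match describes these letters and is not a measured binding site.

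All 25 tested members of mitotic entry and exit rose, with a median of 2.11, and with the mean of all probe sets of each gene 23 did. Cdk1, the main mitotic kinase, was at 8.32, 9.48, 8.45 and 8.76 in naive and 11.96, 11.92 and 11.76 in GC B1-8 cells. Naive replicate 2 was again the highest naive array, and the groups did not overlap. The rise was 3.13 ± 0.25 (8.77-fold, adjusted p = 4.46e-05). Cdc20, which activates the anaphase promoting complex, rose by 2.98 ± 0.26, Fzr1, its partner in late mitosis, by 1.18 ± 0.09, and Plk4, which duplicates centrioles, by 2.11 ± 0.15. Mybl2, a MYB factor of the cell cycle, rose by 2.63 ± 0.20 and Fbxo5, which restrains the anaphase promoting complex, by 1.89 ± 0.15.

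Of 42 centromere and kinetochore genes, 36 rose and none fell (median 1.89). Spc24, which links the kinetochore to microtubules, rose by 3.13 ± 0.22, Mad2l1, the spindle checkpoint protein, by 2.64 ± 0.20, and Cenpa, the centromeric histone, by 2.03 ± 0.10, or 0.58 with the mean of its probe sets. Of 35 kinesins tested, 12 rose and 2 fell (12 and none without naive replicates 2 and 4), and the risers named here are mitotic motors: Kif20a rose by 3.16 ± 0.29, Kif11, which separates spindle poles, by 3.26 ± 0.36, Kif22 by 2.64 ± 0.21, Kif23 by 2.51 ± 0.21 and Kif18a by 2.30 ± 0.23. Kif5b, the conventional cargo motor, was at 11.32 ± 0.19 in naive and 11.52 ± 0.26 in GC B1-8 cells and did not pass (difference 0.20 ± 0.16).

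Of 50 replication genes, 42 rose and none fell (median 1.48). Ticrr, which fires replication origins, went from values between 7.57 and 7.95 to 9.48, 9.56 and 9.53, although with the mean of its probe sets the rise of 1.79 ± 0.11 was 0.75 and did not pass. Orc6, of the origin recognition complex, was nearly constant in naive cells, between 9.39 and 9.48, and rose by 1.47 ± 0.10. Rfc1 and Rfc3, subunits of the clamp loader, rose by 1.57 ± 0.11 and 2.14 ± 0.15, and Lig1, which seals nicks between Okazaki fragments, by 2.37 ± 0.18. Of 33 genes of nucleotide and one-carbon synthesis, 22 rose and 3 fell. Rrm1 and Rrm2, the subunits of ribonucleotide reductase, rose by 1.81 ± 0.12 and 2.57 ± 0.32, Psat1, of serine synthesis, by 1.80 ± 0.14, and Mthfd2, of mitochondrial folate metabolism, by 1.16 ± 0.19.

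2 further promoter elements were searched in the same way. The CHR element, TTTGAA on either strand, was held by 10 of 18 mitosis genes with a promoter (55.6%), against 15.6% of tested genes. It was held by 12 of 28 kinesin genes (42.9%) and 14 of 39 kinetochore genes (35.9%). The E2F element, taken as TTTCCCGC, TTTCGCGC, TTTGCCGC or TTTGGCGC, was held by 17 of 42 replication genes with a promoter (40.5%), against 3.9% of tested genes. Of all promoters, each counted singly, 2.3% held it. Mitosis genes with a CHR match had a median rise of 2.67 and those without 1.68, and all of both groups rose. Replication genes with an E2F match had a median of 1.70 with 13 of 17 higher, and those without 1.38 with 21 of 25 higher. These families were listed by function, so their shares do not speak to the comparison of the groups. Among called genes at least 2-fold higher, family members included, 21.6% held CHR and 7.9% E2F. The shares were 12.7% and 2.9% of those at least 2-fold lower, and 15.8% and 3.4% of genes not called. 1 promoter of each family is shown, with the element in capitals.
Aurka, chr2:172370521-172370820, minus strand: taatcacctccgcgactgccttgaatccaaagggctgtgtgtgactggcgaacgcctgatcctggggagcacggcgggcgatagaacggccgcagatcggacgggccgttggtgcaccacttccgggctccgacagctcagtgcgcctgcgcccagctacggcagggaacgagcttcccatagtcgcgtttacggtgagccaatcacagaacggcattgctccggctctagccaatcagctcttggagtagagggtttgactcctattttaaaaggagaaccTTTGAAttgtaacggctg
Rfc3, chr5:151651159-151651458, minus strand: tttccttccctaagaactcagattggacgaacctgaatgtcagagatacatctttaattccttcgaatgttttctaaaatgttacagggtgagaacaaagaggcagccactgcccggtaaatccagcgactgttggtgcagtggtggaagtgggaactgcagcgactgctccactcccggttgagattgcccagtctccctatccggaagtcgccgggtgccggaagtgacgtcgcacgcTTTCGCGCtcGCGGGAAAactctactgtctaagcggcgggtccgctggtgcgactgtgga
Aurka, a mitotic kinase, rose by 2.42 ± 0.19 (1.62 with the mean of its probe sets) and its CHR match begins 33 bases after the start. Rfc3 holds a pair of E2F matches that flank its start.

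The genes that set entry into the cycle split by member. Ccnd2, the cyclin D of resting and newly stimulated B cells, was between 12.15 and 12.36 in naive cells and at 9.20, 9.34 and 9.31 in GC B1-8 cells, a difference of −2.97 ± 0.09 (adjusted p = 2e-06), or −2.32 when its probe sets were averaged. Ccne2, a cyclin of S phase entry, rose by 3.03 ± 0.33. Ccnd3, the cyclin D that GC B cells depend on, rose by 1.42 ± 0.13 on its brightest probe set, but a second probe set went from 9.73 to 7.55 and the mean of all 3 was −0.20. Cdkn1b (p27), an inhibitor that holds cells in quiescence, went from values of 11.62 to 11.93 down to 9.0, 9.20 and 9.27, while the inhibitor Cdkn2c (p18) went from values of 8.34 to 9.36 up to 11.09, 11.31 and 11.06. Of 15 genes in this family 7 rose and 2 fell. Of 17 E2F and retinoblastoma genes 7 rose and 2 fell (11 and 2 after quantile normalization, 7 and 4 with the mean of probe sets). E2f1, an activator of S phase genes, rose by 1.97 ± 0.15, E2f7, a repressor in the same family, by 2.64 ± 0.23 and Tfdp1, the partner of E2f1 in DNA binding, by 1.56 ± 0.11. Rb1 fell by 1.63 ± 0.14 on the log2 scale, whereas its relative Rbl1 rose by 1.13 ± 0.10, which with the mean of its probe sets was 0.61 and did not pass.

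**Figure D4:**
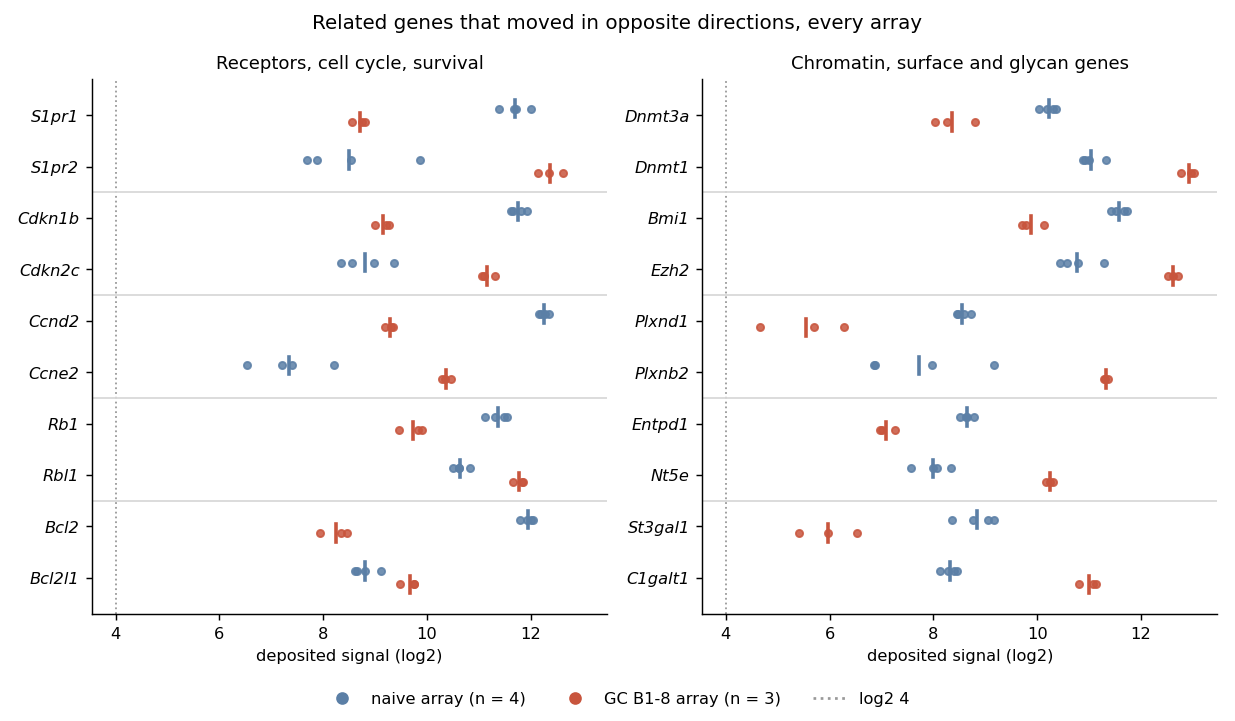
Deposited log2 signal of related genes that differed in opposite directions, on each of the 4 naive (blue) and 3 GC B1-8 (red) arrays, with group means as vertical bars. The pairs were picked after their values were seen, and levels are not comparable between genes. In the first pair S1pr1 falls from 11.39 and above to 8.81 and below, and S1pr2 rises from 9.87 and below to 12.15 and above.

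Somatic hypermutation rests on error-prone repair of uracil in DNA. Of 27 hypermutation, base excision and mismatch repair genes, 17 rose and 2 fell (median 0.67). Neil1, a glycosylase that was also among the GC markers, went from 10.52, 11.69, 10.38 and 10.69 to 13.82, 13.60 and 13.60. Ung, which removes uracil, was between 9.18 and 9.29 in naive and 10.80 and 10.94 in GC B1-8 cells, a rise of 1.61 ± 0.12. Mbd4, a glycosylase for mismatched thymine and uracil, rose by 2.71 ± 0.14, Polh, the error-prone polymerase that puts mutations at A and T bases, by 2.15 ± 0.11, and Exo1, the mismatch repair exonuclease, by 2.12 ± 0.19. The endonuclease genes Apex1 and Apex2 rose by 0.74 ± 0.13 and 1.41 ± 0.42. The Apex2 rise missed the threshold with any 1 GC B1-8 array left out, at 1.34 to 1.5.

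Of 34 homologous recombination and Fanconi genes, 24 rose and 1 fell (median 0.81). Mnd1, a partner of the recombinases in strand exchange, is best known from meiosis. It was at 1.74, 3.19, 2.60 and 2.15 in naive and at 8.10, 7.47 and 7.88 in GC B1-8 cells. Its rise was 3.82 once values were raised to log2 4. Its complex partner Psmc3ip rose by 1.68 ± 0.19. Brip1, a helicase that works with Brca1, rose by 1.99 ± 0.12 and Rad51c, a recombinase paralogue, by 2.62 ± 0.20. Of 14 end-joining and class switch genes 6 rose and 2 fell (5 and none with the mean of probe sets). H2ax, the histone that marks breaks, rose by 2.30 ± 0.23, Lig4, which joins ends, by 1.61 ± 0.16, and Paxip1, which promotes switch transcription, by 1.52 ± 0.12.

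Several metabolic families had many higher members. Of 35 sterol and fatty acid synthesis genes, 25 rose and 2 fell (median 1.01). Sqle, which makes squalene epoxide, went from values between 8.13 and 8.78 to 11.43, 11.21 and 11.37, a rise of 2.89 ± 0.15 (adjusted p = 8.51e-06). Idi1, Cyp51 and Msmo1 of the same pathway rose by 2.60 ± 0.14, 2.39 ± 0.14 and 2.01 ± 0.09, as did Insig1, its feedback sensor, by 1.78 ± 0.10. Of 4 sterol efflux genes 3 fell: the exporters Abca1 and Abcg1 fell by 1.85 ± 0.17 and 1.33 ± 0.16 on the log2 scale, and Mylip, which degrades the LDL receptor, by 0.93 ± 0.17. With the mean of its probe sets Abcg1 was −1.16 and did not pass. The promoter element of sterol regulation searched, TCACNCCAC, was held by 1 of 28 genes of the synthesis family with a promoter, against 1.5% of tested genes.

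The respiratory chain and mitochondrial ribosome families rose in over 50% of their members when all arrays were used. Of 74 respiratory chain and ATP synthase genes 50 rose and 1 fell (median 0.41), and 36 rose without naive replicates 2 and 4. Sdhb, a complex II subunit, was between 11.27 and 11.38 in naive and at 12.45, 12.57 and 12.33 in GC B1-8 cells. Of 76 mitochondrial ribosomal protein genes 42 rose and 1 fell (median 0.38), and 26 rose and 4 fell with the mean of probe sets. Without naive replicates 2 and 4 the counts were 34 and 1. Mrpl27 rose by 1.06 ± 0.09. Cytosolic ribosomal protein genes differed from these in count: 2 of 48 rose and 5 fell (median −0.10), and 1 rose and 1 fell without naive replicates 2 and 4. Rpl12 fell by 1.37 ± 0.17 on the log2 scale.

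Of 44 proteasome genes 29 rose and none fell (median 0.54), or 26 and 3 with the mean of probe sets. Psmd13, of the regulatory particle, rose by 1.28 ± 0.08 (0.43 with the mean of its probe sets) and Psmb2, of the core, by 1.13 ± 0.10. Of 38 translation initiation factors 20 rose and 3 fell: Eif4e, which binds the mRNA cap, rose by 0.74 ± 0.09 and Eif3k by 0.92 ± 0.10, while Eif4a2, a helicase, fell by 0.83 ± 0.09 on the log2 scale. Of 34 tRNA synthetases 11 rose and 4 fell (8 and 7 with the mean of probe sets), with Gars and Aars up by 0.94 ± 0.10 and 0.96 ± 0.14. Ribosome biogenesis genes were close to the background, with 6 of 36 higher and 7 lower (3 and 7 without naive replicates 2 and 4, 7 and 6 after median centring), as Nop58 rose by 0.83 ± 0.10 and Polr1b, of RNA polymerase I, fell by 1.01 ± 0.17. Of 31 SR proteins and hnRNPs 11 rose and 4 fell (10 and 2 after median centring), and Hnrnpa1 had the largest fall, from 13.19 ± 0.15 to 11.63 ± 0.27.

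Of 36 genes of endoplasmic reticulum folding and the unfolded protein response, 5 rose and 8 fell (7 and 6 with the mean of probe sets, 2 and 8 with a replicate block). Pdia4, a disulfide isomerase, went from values between 10.44 and 10.76 to 8.33, 8.33 and 7.74, a difference of −2.51 ± 0.19 (−1.51 with the mean of its probe sets), and Ddit3, a stress-induced transcription factor, fell by 1.44 ± 0.18. Hspa5 (BiP), the main chaperone of the compartment, had a difference of −0.39 ± 0.18 and did not pass. Of 17 amino acid supply and ATF4 genes 5 rose and 4 fell (4 and 2 without naive replicates 2 and 4). Asns, asparagine synthetase, was between 8.85 and 9.08 in naive and at 10.07, 10.14 and 10.04 in GC B1-8 cells, a rise of 1.16 ± 0.10. Cth, of cysteine synthesis, rose by 2.41 ± 0.38 and Ddit4, an inhibitor of mTORC1, fell by 1.23 ± 0.17.

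Of 27 glycolysis and pentose phosphate genes 13 rose and 4 fell (11 and 2 with the mean of probe sets). The enzymes Tpi1, Aldoc and Pkm rose by 1.41 ± 0.10, 1.71 ± 0.16 and 1.00 ± 0.10, whereas the glucose transporter Slc2a1 fell by 0.75 ± 0.12 and the enolase Eno3 by 1.66 ± 0.14. Of 39 TCA cycle and fatty acid oxidation genes 18 rose and 6 fell (12 and 4 without naive replicates 2 and 4). Hadha, of fatty acid oxidation, rose by 0.96 ± 0.10. Pdk3, which inhibits pyruvate dehydrogenase, rose by 1.55 ± 0.14. Of 34 autophagy genes 14 fell (41.2%, against 17.3% of all genes) and 6 rose, with a median of −0.30. After median centring 11 fell and 5 rose, and the counts were 10 and 5 without naive replicates 2 and 4. Pik3r4, of the lipid kinase complex that starts autophagosomes, fell by 1.75 ± 0.23 and Atg4c by 2.22 ± 0.25 on the log2 scale (−1.19 with the mean of its probe sets), while Atg101, of the initiating kinase complex, rose by 2.22 ± 0.16.

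**Figure D5:**
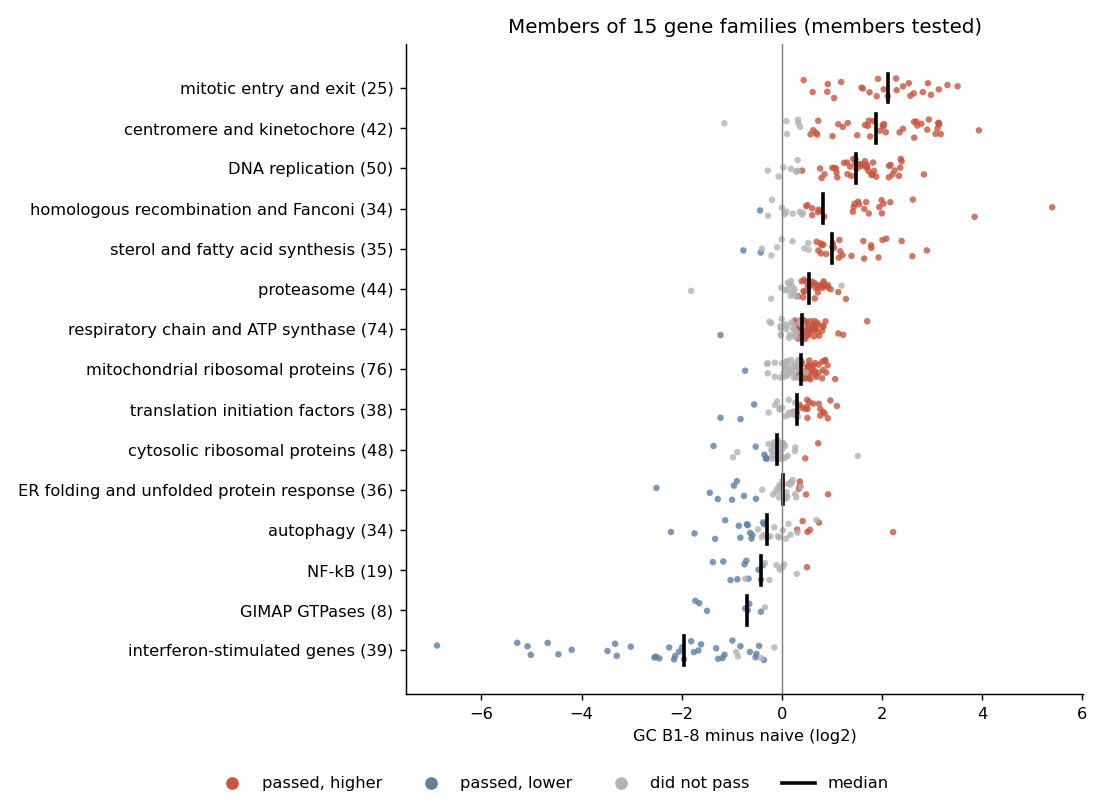
Difference GC B1-8 minus naive (log2) of every tested member of 15 gene families, coloured by whether it passed the test, with family medians as black bars. Medians run from 2.11 for mitotic entry and exit to −1.96 for interferon-stimulated genes, with cytosolic ribosomal proteins at −0.10.

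Receptors that place B cells in the spleen were mostly lower. Of 14 lipid-sensing receptors 11 fell and 2 rose, with a median of −1.22. S1pr1, which draws B cells to exit along sphingosine phosphate, was at 11.72, 11.39, 11.67 and 12 in naive and at 8.56, 8.75 and 8.81 in GC B1-8 cells, a difference of −2.99 ± 0.16. S1pr2, which confines cells to the GC, went the other way, from 7.70, 9.87, 7.88 and 8.53 to 12.15, 12.36 and 12.61, a rise of 3.88 ± 0.46, or 4.59 without naive replicates 2 and 4. Gpr183 (EBI2), which draws cells to the outer follicle, fell by 2.11 ± 0.19 on the log2 scale, and Gpr174, P2ry10, Lpar6 and Cnr2 by 2.51 ± 0.27, 1.85 ± 0.21, 1.90 ± 0.13 and 1.20 ± 0.13. Of 12 chemokine receptors 4 fell and 1 rose (4 and 2 without naive replicates 2 and 4). Ackr3, a scavenger of the ligand of Cxcr4, went from values between 9.54 and 9.70 to 5.51, 4.77 and 4.70, and Ccr6 fell by 3.13 ± 0.27. Cxcr5, the receptor for the follicle, fell by 0.63 ± 0.10, and Cxcr4, which guides cells to the dark zone, was at 12.12 ± 0.63 in naive and 12.75 ± 0.12 in GC B1-8 cells and did not pass, although without naive replicates 2 and 4 its rise of 0.45 did.

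Of 16 integrin chains 4 rose and 5 fell (4 and 3 without naive replicates 2 and 4, and 4 and 2 after median centring). The chains Itga4 and Itgb7, which pair as a gut homing integrin, fell by 2.48 ± 0.15 and 2.67 ± 0.18 on the log2 scale. With the mean of its probe sets Itga4 was at −1.63. Itgam, which rose by 1.04 ± 0.21, is also expressed by neutrophils and moved with their markers. Of 16 guidance genes 2 rose and 4 fell (4 and 2 with the mean of probe sets). Plxnb2, a semaphorin receptor of GC B cells, rose from 6.85, 9.17, 6.88 and 7.97 to 11.36, 11.31 and 11.28, by 3.60 or, without naive replicates 2 and 4, by 4.45, and Efnb1, an ephrin of GC B cells, rose by 2.12 ± 0.29. Plxnd1 fell by 3.01 ± 0.46 and Nrp2 by 2.08 ± 0.15 (−3.57 with the mean of its probe sets). Of 14 RGS proteins, which shorten G protein signals, 5 fell and none rose (with 2 higher after quantile normalization). Rgs11 and Rgs18 fell by 1.44 ± 0.25 and 1.44 ± 0.28.

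Glycan genes bear on the sort, since PNA binds the core 1 structure of O-glycans where sialic acid does not cover it. C1galt1, which makes core 1, was at 8.40, 8.12, 8.28 and 8.46 in naive and at 10.80, 11.07 and 11.14 in GC B1-8 cells, a rise of 2.69 ± 0.16. St3gal1, which adds sialic acid to core 1, went from 9.17, 9.05, 8.76 and 8.36 to 5.40, 5.96 and 6.52, a difference of −2.87 ± 0.28. Neither pair of groups overlapped. Cmah, whose loss in GC B cells uncovers the GL7 epitope, fell by 2.15 ± 0.16. Over the family 4 of 23 rose and 9 fell.

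Of 8 GIMAP GTPases, which support lymphocyte survival, 7 fell with a median of −0.71, Gimap4 from 13.20 ± 0.09 to 11.47 ± 0.13 and Gimap8 from 13.49 ± 0.07 to 11.99 ± 0.08. Of 11 CD2 and SLAM receptors, which mediate contact with T cells, 2 rose and 5 fell (2 and 3 without naive replicates 2 and 4). Slamf1 rose by 1.61 ± 0.23 and Slamf7 by 1.99 ± 0.22, while Slamf9 fell by 3.75 ± 0.25 and Cd2 by 1.51 ± 0.11. Of 19 tetraspanins 2 rose and 8 fell, with Tspan33 up by 1.60 ± 0.15 and Cd9 down by 2.97 ± 0.41. Cd9, Cd1d1, Dtx1, Cr2 and Asb2 also belong to a list of 6 marginal zone B cell markers, of which these 5 fell, Asb2 by 3.73 ± 0.19.

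In the adenosine pathway Nt5e (CD73), which makes adenosine from AMP, rose by 2.25 ± 0.16 and Adk, which clears it, by 2.15 ± 0.15, beside the rise of Ada. Entpd1 (CD39), which makes AMP, fell by 1.56 ± 0.11 (−2.70 with the mean of its probe sets). Dpp4 (CD26), also on this list, went from values between 10.17 and 10.60 to 5.92, 6.52 and 5.09, a difference of −4.57 ± 0.40. Of 8 immunoglobulin, J chain and surrogate chain genes 2 rose and 1 fell. Jchain, which joins IgM and IgA into polymers, rose by 2.44 ± 0.37 and Vpreb3 by 1.10 ± 0.08. Jchain is also a plasma cell marker. The brightest Ighm probe set was at 14.45 ± 0.09 and 14.62 ± 0.16 and did not pass, but some dimmer ones were higher, 1 of them at 7.07 and 10.99, and with the mean of its probe sets Ighm rose by 1.49 (adjusted p = 0.0002).

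Of 23 antigen receptor signalling genes 4 rose and 11 fell (4 and 7 without naive replicates 2 and 4), with a median of −0.31. Cr2 (CD21), the complement co-receptor, was between 13.86 and 14.02 in naive and between 13.03 and 13.05 in GC B1-8 cells, Malt1, a protease upstream of NF-kB, fell by 1.17 ± 0.13 and Prkcb by 0.59 ± 0.07 on the log2 scale. The kinase Fyn rose by 1.5 ± 0.11 and the adaptor Grb2 by 0.79 ± 0.09. Of 22 tyrosine phosphatases 6 fell and 1 rose. Ptpn22, which dampens antigen receptor signals, went from 12.62, 12.23, 12.29 and 11.55 to 7.50, 7.75 and 7.98, a difference of −4.43 ± 0.25, and Ptpn14 and Ptprj fell by 3.08 ± 0.22 and 2.41 ± 0.17. Ptpn6 (SHP-1) had a difference of 0.21 ± 0.08 and did not pass.

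Of 19 inhibitory receptors 9 fell and 1 rose, with a median of −0.43. Pirb fell by 2.63 ± 0.16, Cd274 (PD-L1) by 1.45 ± 0.11, Fcgr2b, the inhibitory receptor for IgG, by 0.81 ± 0.11 and Btla by 0.51 ± 0.08, while Cd22 was at 13.73 ± 0.04 and 13.64 ± 0.09. Of 21 MAPK phosphatases 5 rose and 4 fell (4 and 6 without naive replicates 2 and 4): Dusp5 rose by 2.91 ± 0.30 and Dusp16 fell by 2.07 ± 0.13. Of 28 calcium genes 5 rose and 7 fell (5 and 4 without naive replicates 2 and 4, and 2 and 4 with the mean of probe sets), and none apart from Kcnn4 differed by 2-fold with a call. Of 25 PI3K and FOXO genes 5 rose and 9 fell (3 and 5 with the mean of probe sets). The kinase Akt1 rose by 1.18 ± 0.15 and the catalytic subunit Pik3cg by 1.00 ± 0.08, while Foxo4 fell by 2.90 ± 0.34 (−1.27 with the mean of its probe sets), Phlpp1, an AKT phosphatase, by 1.08 ± 0.08 and the regulatory subunit Pik3r5 by 1.32 ± 0.16. Foxo1, the FOXO factor of the dark zone, differed by 0.18 ± 0.09 and did not pass.

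Of 19 NF-kB genes 10 fell and 1 rose, with a median of −0.42. The subunits Nfkb2 and Relb of the alternative pathway fell by 0.75 ± 0.10 and 0.71 ± 0.11 on the log2 scale and the inhibitor Nfkbie by 1.03 ± 0.09. Rel rose by 0.50 ± 0.14, and missed the threshold with any 1 of naive replicates 1 and 2 and GC B1-8 replicates 1 and 2 left out, at 0.42 to 0.48. Of 17 immediate early genes 10 fell and 2 rose, with a median of −0.74. Egr1 rose from values between 10.99 and 11.11 to 12.32, 12.48 and 12.63, while Nr4a1, Ier2, Ier5 and Jun fell by 1.78 ± 0.14, 1.19 ± 0.11, 1.18 ± 0.08 and 1.30 ± 0.16, with Jun at −2.40 with the mean of its probe sets. The handling stress list, which shares such genes, averaged 9.17 to 9.37 on GC B1-8 arrays and 9.41 on naive replicate 4, and its part in these falls was not tested.

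Of 30 cytokine receptor chains 11 fell and 5 rose (11 and 3 with the mean of probe sets). Il4ra and Il21r, for cytokines of follicular helper T cells, rose by 0.94 ± 0.12 and 0.97 ± 0.15, and Il4ra missed the threshold with the mean of its probe sets, at 0.53. Il10rb fell by 3.40 ± 0.14, Il5ra fell by 3.01 ± 0.22 and Csf2rb by 2.45 ± 0.19. Il9r was at 8.66, 9.15, 9.04 and 9.28 in naive and at 3.56, 4.18 and 7.57 in GC B1-8 cells, so that the last array stood far from the others. Its difference of −3.93 ± 0.95 missed the threshold without GC B1-8 replicate 2, at −3.47, and without naive replicates 2 and 4, at −3.75, was −3.16 without replicate 1, and was −5.16 without replicate 3. Of 22 JAK, STAT and SOCS genes 7 fell and 2 rose, with Socs5 down by 3.07 ± 0.24, Stat6 down by 0.68 ± 0.09 and Socs1 up by 1.5 ± 0.25.

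Toll-like receptors and their partners fell in 10 of 23 cases and rose in 1. Tlr7, the sensor of single-stranded RNA, went from values between 9.96 and 10.32 to 5.98, 6.48 and 5.80, a difference of −4.03 ± 0.38, and Tlr1 fell by 1.23 ± 0.09, Tlr2 by 1.88 ± 0.19 and the brake Irak3 by 2.16 ± 0.23. Tirap, an adaptor, rose by 1.33 ± 0.15. Tlr9 was at 6.54 ± 0.87 in naive and 6.56 ± 0.41 in GC B1-8 cells. In the Notch pathway, which directs marginal zone fate through Notch2, 9 of 20 fell and 2 rose (4 and 2 with the mean of probe sets). Notch2 fell by 2.36 ± 0.11 (−1.07 with the mean of its probe sets) and its targets Hes1 and Dtx1 by 2.86 ± 0.13 and 1.09 ± 0.11.

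Of 30 transcription factors of B cell fate 7 rose and 12 fell. Bcl6 was at 11.39, 11.98, 11.88 and 11.85 in naive and 12.89, 12.96 and 12.86 in GC B1-8 cells, a rise of 1.13 ± 0.14. Bach2, which holds back plasma cell fate, rose by 0.84 ± 0.09 and Spi1 (PU.1) by 0.49 ± 0.10. Irf4, which promotes plasma cell fate at high level, fell by 1.98 ± 0.13, Hhex by 2.88 ± 0.21, Foxp1 by 1.19 ± 0.11, Runx3 by 1.23 ± 0.12 and Pax5 by 1.14 ± 0.25 on the log2 scale. Irf8 rose by 0.37 ± 0.10, which missed the threshold without GC B1-8 replicate 2, at 0.36, and after quantile normalization, at 0.25. Prdm1 (Blimp-1), of plasma cells, Pou2af1 and Spib did not pass, with differences of 0.13 ± 0.27, −0.11 ± 0.11 and 0.12 ± 0.12.

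Of 12 Kruppel-like factors 8 fell and 1 rose, with a median of −0.72. Klf2, which maintains quiescence and S1pr1, was between 11.74 and 12.11 in naive and at 7.78, 8.22 and 8.71 in GC B1-8 cells. Klf3 fell by 3.96 ± 0.17 (−2.78 with the mean of its probe sets). A dim probe set of Klf3 went the other way, from 5.465 in naive to 6.55 in GC B1-8 cells. Of 6 E proteins and ID inhibitors 1 rose and 3 fell, Tcf3 (E2A) up by 0.54 ± 0.11 and Tcf4 (E2-2) down by 0.58 ± 0.08. Of 15 MYC network genes 3 rose and 4 fell (1 and 3 with the mean of probe sets, 3 and 2 without naive replicates 2 and 4). Mxd3, a MAX partner of dividing cells, rose by 1.41 ± 0.14. Myc fell by 0.60 ± 0.18, and missed the threshold with any 1 of naive replicates 1 to 3 and GC B1-8 replicates 2 and 3 left out, at −0.59 to −0.51. Of 8 antiproliferative BTG, TOB and ZFP36 genes 6 fell and 1 rose, but 1 fell and none rose with the mean of probe sets.

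Chromatin families held members that moved in opposite directions. Of 25 Polycomb genes 8 rose and 8 fell (7 and 4 with the mean of probe sets). Ezh2, the methyltransferase that GC B cells need, went from 10.57, 11.29, 10.45 and 10.78 to 12.72, 12.62 and 12.52, and Suz12, Mtf2 and Phf19 of the same complex rose by 0.97 ± 0.09, 1.55 ± 0.14 and 2.00 ± 0.18, with Phf19 at 1.0 with the mean of its probe sets. Jarid2, which also belongs with Ezh2, fell by 1.59 ± 0.12, and Bmi1, of the other Polycomb complex, fell by 1.70 ± 0.13. Ezh1 and Cbx7 fell by 1.05 ± 0.15 and 1.84 ± 0.13, and neither passed with the mean of probe sets, at −0.17 and −0.54. Of 16 DNA methylation genes 6 rose and 4 fell. Dnmt1 and Uhrf1, which copy methylation at replication, rose by 1.88 ± 0.13 and 2.31 ± 0.23, whereas Dnmt3a and Dnmt3b, which set it anew, fell by 1.86 ± 0.19 and 0.94 ± 0.08. With the mean of probe sets Dnmt3a and Dnmt3b were at −1.06 and −0.61.

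Of 18 BCL2 family genes 6 rose and 4 fell. Bcl2 was at 12.01, 11.80, 12.04 and 11.93 in naive and at 7.95, 8.46 and 8.35 in GC B1-8 cells, a difference of −3.69 ± 0.19 (adjusted p = 8.08e-06). Bcl2l1 (BCL-XL) rose by 0.87 ± 0.15, Bad by 1.09 ± 0.13 and Bmf by 0.69 ± 0.10, while Bcl2l2 fell by 1.26 ± 0.17. Mcl1, which GC B cells need for survival, had a difference of −0.28 ± 0.09 and missed the threshold (adjusted p = 0.0501), but passed as lower in 7 alternatives, among them the mean of its probe sets (−0.36). Of 20 caspases and their regulators 3 rose and 6 fell (5 and 4 after median centring), among them Cflar, the caspase-8 inhibitor, down by 0.76 ± 0.10. Of 29 BAFF receptor and TNF superfamily genes 1 rose, Fas by 1.22 ± 0.19, and 3 fell (4 rose and 1 fell without naive replicates 2 and 4). Tnfrsf13c, the BAFF receptor, was at 12.90 ± 0.17 and 13.14 ± 0.07 and did not pass.

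MHC class II genes were close between the groups. Of 16 tested 1 rose and 2 fell (median −0.04) that was 0.03 after median centring. H2-Aa was at 14.57 ± 0.08 and 14.53 ± 0.12, with a difference of −0.04 ± 0.10, and Ctss, the protease that trims the invariant chain, fell by 0.83 ± 0.09. Of 11 class I loading genes, Cd1d1 included, 5 fell and none rose (8 fell with the mean of probe sets). Among them B2m fell by 0.50 ± 0.08, Tapbp by 0.87 ± 0.08 and the transactivator Nlrc5 by 1.83 ± 0.23. Of 11 costimulatory genes 4 rose and 1 fell. Cd86 and Cd83 rose by 0.58 ± 0.13 and 0.44 ± 0.08, while Icosl, which engages ICOS on helper T cells, fell from values between 11.67 and 11.89 to 10.49, 9.95 and 9.71. Cd40 had a difference of −0.40 ± 0.18 and did not pass, but passed as lower in 3 alternatives, among them the mean of its probe sets (−0.57) and the fit without GC B1-8 replicate 3 (−0.63).

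GC B1-8 and GC V23 cells share the naive arrays as their reference, so the lines were compared with each other directly. 4 of 17204 genes (0.0233%) differed between them at an adjusted p under 0.05, and 1328 had an unadjusted p under 0.05. 2 of the 4 are named above. Asns was lower in GC B1-8 by 1.14 on the log2 scale, at 10.08 ± 0.05 against 11.22 ± 0.12 (SD, n = 3 each; adjusted p = 0.0369), and both lines were above naive. Cd2 was higher in GC B1-8, at 10.36 ± 0.18 against 9.22 ± 0.14, a difference of 1.15 (adjusted p = 0.0369), and both lines were below naive. The other 2, which no list above holds and which were named after their values were seen, are Cck and Zcchc14. No other gene named here passed this test, which does not show that the lines were alike.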

How the data were processed

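RNA was measured on Affymetrix whole-genome mouse arrays. The deposited values are log2 signals, for which the submitters' processing notes name GCRMA without a version. The values themselves, from −4.29 to 14.88, have no floor and no shared quantiles. Their mean on the linear scale, with the highest and lowest 2% left out, was 500 on each of the 10 arrays. The arrays were thus scaled to 1 common mean, which the name GCRMA does not tell. Beyond this the method behind the values stays unknown here, as does their order at low signal. Of 45101 probe sets, 34958 were paired with 1 gene symbol by the platform annotation, 932 with several and 9211 with none, and the probe set with the highest mean over all 10 arrays stood for each of 18194 genes. Genes above log2 4 on at least 3 arrays, 17204 in all, were tested with limma (version 3.58.1, in R 4.3.3). The model held 3 group means over the 10 arrays with empirical Bayes moderation, and p-values are two-sided with Benjamini-Hochberg adjustment over all genes tested (threshold 0.05). Its code was checked on simulated data. Errors of differences are standard errors of the model, errors of levels are SDs between arrays. The number of arrays limits the precision, and the median residual SD was 0.889 for genes below log2 6 and 0.118 above log2 10.

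The members and gene lists, 62 families and 14 marker lists, were chosen with earlier results of these data known. Named genes are the 10 highest and 10 lowest called differences without overlap and with all 7 values above log2 4, the 5 in each direction with a value below it that differed most once values were raised to log2 4, and the key and smallest-p members of each list. Genes outside this rule, Ifit3, Oasl2, Herc6, Ifi203, Ifi204, Stat2, Cck and Zcchc14, were chosen after their values were seen. Promoters are RefSeq sequence (GRCm38.p6), matched by symbol for 13691 of the tested genes. Other low-signal filters, probe set rules, scalings, spread models and left-out arrays were tried as alternatives. Deviations of same-numbered naive and GC B1-8 arrays correlated at 0.026, −0.019 and −0.002, so the replicate numbers were not taken to pair samples.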

Additional observations from a re-analysis of the deposited data

Results flagged for a closer look

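All 279 named genes were checked for a naive array far from the other 3, by Dixon's test at the 95% level. Chance alone passes this test in about 1 in 20 groups, so some flags would arise over this many genes in any case. Naive replicate 2 lay above the others in Uhrf1 (10.69 against 9.68 to 9.83), Polh (9.94 against 9.59 to 9.63), Icosl (11.89 against 11.67 to 11.69) and Asns (9.08 against 8.85 to 8.89). It lay below them in Cnr2 (11.62 against 11.85 to 11.88) and Hes1 (9.39 against 9.58 to 9.62). Naive replicate 4 was above the others in Tlr2 (9.32 against 8.78 to 8.87) and Msmo1 (9.62 against 9.39). It was below the others in Klf2 (11.74 against 12.07 to 12.11), P2ry10 (12.39 against 12.81 to 12.88), Stat6 (12.19 against 12.38 to 12.40), Nfkbie (12.33 against 12.47 to 12.49) and Apex2 (5.36 against 6.97 to 7.20). Naive replicate 1 was above in Cd2 (11.95 against 11.85 to 11.86) and below in Brip1 (6.32 against 6.62 to 6.65) and Ptpn6 (13.02 against 13.14 to 13.17). Naive replicate 3 was below in Pml (11.26 against 11.33 to 11.34).

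4 genes differed between the B1-8 and V23 lines in the direct limma test (GC B1-8 minus GC V23, log2). Asns differed by −1.14 and Cd2 by 1.15. Cck differed by −2.24 and Zcchc14 by −1.97, and all GC B1-8 values of these 2 genes were below log2 4.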

How the results depend on the processing

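Among the 279 named genes, 1 changed direction after a call: Ccnd3 was −0.20 with the mean of all probe sets of a gene. Sign changes of differences that did not pass the test were not counted. Leaving out 1 GC B1-8 array took at most 6 named genes from passing to not passing. The mean of probe sets did so for 6 as well. It moved the difference of 46 of 258 called named genes by over 1.5 times on the linear scale, 37 of them to a smaller size. Of 21 named genes that did not pass, 10 passed in at least 1 alternative: Oasl2, Herc6, Ifi203, Hspa5, Ptpn6, Tnfrsf13c, Mcl1, Cd40, Cxcr4 and Ighm. A minimum of 2-fold left 1058 genes higher and 1187 lower, by its construction. Leaving out 1 array gave 2236 to 2879 genes higher and 2507 to 2978 lower. Quantile normalization gave 3215 and 2678, and median centring 3042 and 2406, with 54.6% and 55.8% of calls higher against 48.8%. The other filters, probe set rules and spread models gave 2390 to 3053 higher and 2547 to 3219 lower, and the counts were 2528 and 2292 when naive replicates 2 and 4 were both left out. With the replicate number as a block, 2561 genes were higher and 2503 lower. The numbers were not shown to pair the samples. Signals near log2 4 carry larger errors than bright ones, so small differences of dim genes may not be detectable with 3 and 4 arrays.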
